A study of Mus musculus with 27 samples.

Results

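The 10 MHC class II genes examined here were those of the deposited expression table, which covers 36333 genes, whose symbols are *H2-Aa*, *H2-Ab1*, *H2-Eb1*, *H2-DMa*, *H2-DMb1*, *H2-DMb2*, *H2-Oa*, *H2-Ob*, *Cd74* and *Ciita*. All 10 were in the table. They were followed in liver, omental adipose tissue (hereafter adipose) and skeletal muscle (hereafter muscle) of *Mlx*KO mice. Each tissue had 4 mice aged 5 months and 5 mice aged 20 months, which made 27 samples. Ages are those of the labels, and the study's own list of its mice gives the older ones a somewhat lower age. All of the mice, at both ages, carried floxed *Mlx* alleles together with the tamoxifen-activated Cre recombinase expressed from the ROSA26 locus. All received 5 daily injections of tamoxifen (75 mg per kg) at weaning, once they weighed at least 15 g, so that the Mlx transcription factor would be removed throughout the body. The loss of *Mlx* was partial in muscle by the study's own check, and less complete there than in liver, which applies to each comparison with muscle below. WT mice were not analysed here, and an effect of age therefore cannot be separated from an effect of age in mice without Mlx. The 4 mice at 5 months gave all 3 tissues and are called A to D here, in the order of their numbers in the labels. The older mice bear the numbers of the labels, and none of these was shared between tissues.

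MHC class II molecules display peptides from engulfed material to CD4 T cells. Each is a pair of chains, and in these mice the genes for the classical chains are *H2-Aa* (I-A alpha), *H2-Ab1* (I-A beta) and *H2-Eb1* (I-E beta). The partner of the last, I-E alpha, was listed only as a pseudogene, *H2-Ea-ps*, at 0 in every sample. The RNA of *H2-Eb1* is therefore not read here as a measure of I-E molecules. *Cd74* encodes the invariant chain, which fills the peptide groove during assembly. The H2-DM chaperone, built from the products of *H2-DMa* with *H2-DMb1* or *H2-DMb2*, removes the last fragment of the invariant chain, and H2-DO, built from *H2-Oa* and *H2-Ob*, restrains H2-DM and is best known from B cells. *Ciita* encodes the coactivator that assembles on class II promoters. These genes are expressed mainly by dendritic cells, B cells and macrophages, in all 3 tissues as a minority of cells, and in bulk tissue fewer expressing cells and less RNA per cell cannot be told apart.

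In GRCm38.p6 the 8 *H2* genes lie together on chromosome 17, from *H2-Oa* (34092379 to 34095234) to *H2-Eb1* (34305867 to 34316674). *Ciita* is on chromosome 16 (10480014 to 10531064). CIITA acts through factors bound at a conserved X box and Y box, and these letters were looked for in the promoters of the members. RefSeq start sites in GRCm38.p6 gave promoter sequence, from 250 bases before to 50 after the start, for 7 of the 10 members, and the sequences of *H2-Ab1*, *Cd74* and *Ciita* are not shown here. The Y box was searched as TGATTGG, the X box as CNNATGATG and the cyclic AMP response element as TGACGTCA, each on both strands. The 3 were written out after the members' sequences had been read, so their presence in the members is no independent finding. In the stretches below, read in the direction of the gene, capitals mark these motifs and nothing else.
*H2-Aa* (chr17:34287859-34287918, minus strand): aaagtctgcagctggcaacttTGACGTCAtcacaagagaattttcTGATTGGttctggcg
*H2-Eb1* (chr17:34305761-34305820, plus strand): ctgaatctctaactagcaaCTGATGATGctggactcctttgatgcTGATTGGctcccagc
*H2-DMb1* (chr17:34153083-34153142, plus strand): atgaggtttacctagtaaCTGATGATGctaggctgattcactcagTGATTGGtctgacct
*H2-DMb2* (chr17:34145112-34145171, plus strand): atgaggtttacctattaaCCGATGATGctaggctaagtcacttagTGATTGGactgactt
*H2-Oa* (chr17:34092289-34092348, plus strand): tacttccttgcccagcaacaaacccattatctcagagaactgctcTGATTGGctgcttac
*H2-Ob* (chr17:34238801-34238860, plus strand): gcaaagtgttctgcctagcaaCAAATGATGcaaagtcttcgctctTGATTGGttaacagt

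The Y box letters were in 6 of these 7 members and in 7.82% of all 32851 promoters of the table. Neither of the *H2-DMa* start sites had any of the 3 motifs in this window. The X box letters were in 4 members and in 902 promoters, or 2.75%. An X box with a Y box starting 9 to 50 bases further on was found in 5 promoters, those of *H2-Eb1*, *H2-DMb1*, *H2-DMb2* and *H2-Ob*, where the distance was 24 to 27 bases, and that of *Fthl17f*. The cyclic AMP response element letters, seen in *H2-Aa* 16 bases before the Y box, were in 1.79% of all promoters. The near-identical stretches of *H2-DMb1* and *H2-DMb2* show how alike these neighbours are: 369 words of 50 bases were common to their annotated transcripts, 22.7% of those of *H2-DMb1* and 21.2% of those of *H2-DMb2*, so reads could have been divided between them in counting and the values of each are uncertain to that extent.

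The deposited values are reads per gene scaled to the library total and to a further factor of each sample, and each was a whole multiple of the value of 1 read. Samples held 14384695 to 25673919 reads on genes, and 3 reads corresponded to a value of 0.0703 to 0.242. Values were tested as log2(value + 1) by limma, on genes that reached a value of 1 in 4 or more samples of the tissue, with Benjamini-Hochberg adjustment over all genes tested and a threshold of 0.05. The log2 differences below are on that scale, where the change of a low gene is understated. Defining transcripts matched the labelled tissues: *Alb* was at 26970 or more in liver, *Adipoq* at 532 or more in adipose and *Acta1* at 25482 or more in muscle. *Mlx* was read at 18.8 to 32.4 in liver and 7.04 to 13.9 in the other tissues, and without WT samples this does not check the deletion. Liver mouse 74, at 20 months, had a scaling factor of 1.05 where the other livers of that age had 0.811 to 0.852.

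At 5 months, 9 of the 10 members were higher in adipose than in both liver and muscle. The classical chains were at 18.3 to 22.1 in liver, 150.4 to 221 in adipose and 16.3 to 21 in muscle (group means, n = 4). In a single limma fit over all 27 samples, 9 of the 10 members were lower in liver than in adipose, where 76.4% of all 15572 genes tested differed in either direction. *H2-Oa* did not pass (log2 difference of -0.51 ± 0.27 (SE), adjusted p = 0.0920). All 10 were higher in adipose than in muscle, against 72.8% of genes that differed, and 0 of 10 differed between liver and muscle, against 72.9%. However, *H2-DMb2* and *H2-Oa* were under a value of 1 in every liver and muscle sample at 5 months, and *H2-Ob* in all but the liver of mouse D. These genes entered the fit by their values in other samples, so a difference between liver and muscle could hardly show for them. Those samples were mostly adipose, where these genes are high, and their calls against adipose are to be read with that limit. With edgeR on the recovered reads, 1 member differed between liver and muscle at this age. *H2-Aa* showed the largest gap between adipose and muscle, at a log2 difference of 3.34 ± 0.33 (SE). Most genes differ between tissues, so these counts are to be read against the shares given.

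At 20 months the order was adipose, then liver, then muscle, for all 10 members. All 10 differed between liver and adipose (74.5% of genes), between liver and muscle (77.2%) and between adipose and muscle (76.0%). However, *H2-DMb2*, *H2-Oa* and *H2-Ob* were under a value of 1 in every muscle sample. *H2-Oa* was also under 1 in every liver but that of mouse 18. These genes passed the filter mostly by adipose samples, where they are high, so their part in these counts is to be read with that limit. *Cd74* was at 840 ± 246 (SD, n = 5) per sample in adipose, 281 ± 198 in liver and 46.3 ± 5.01 in muscle. The log2 differences between liver and muscle ran from 0.76 for *H2-DMb2* to 2.27 for *Cd74*.

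**Figure D1:**
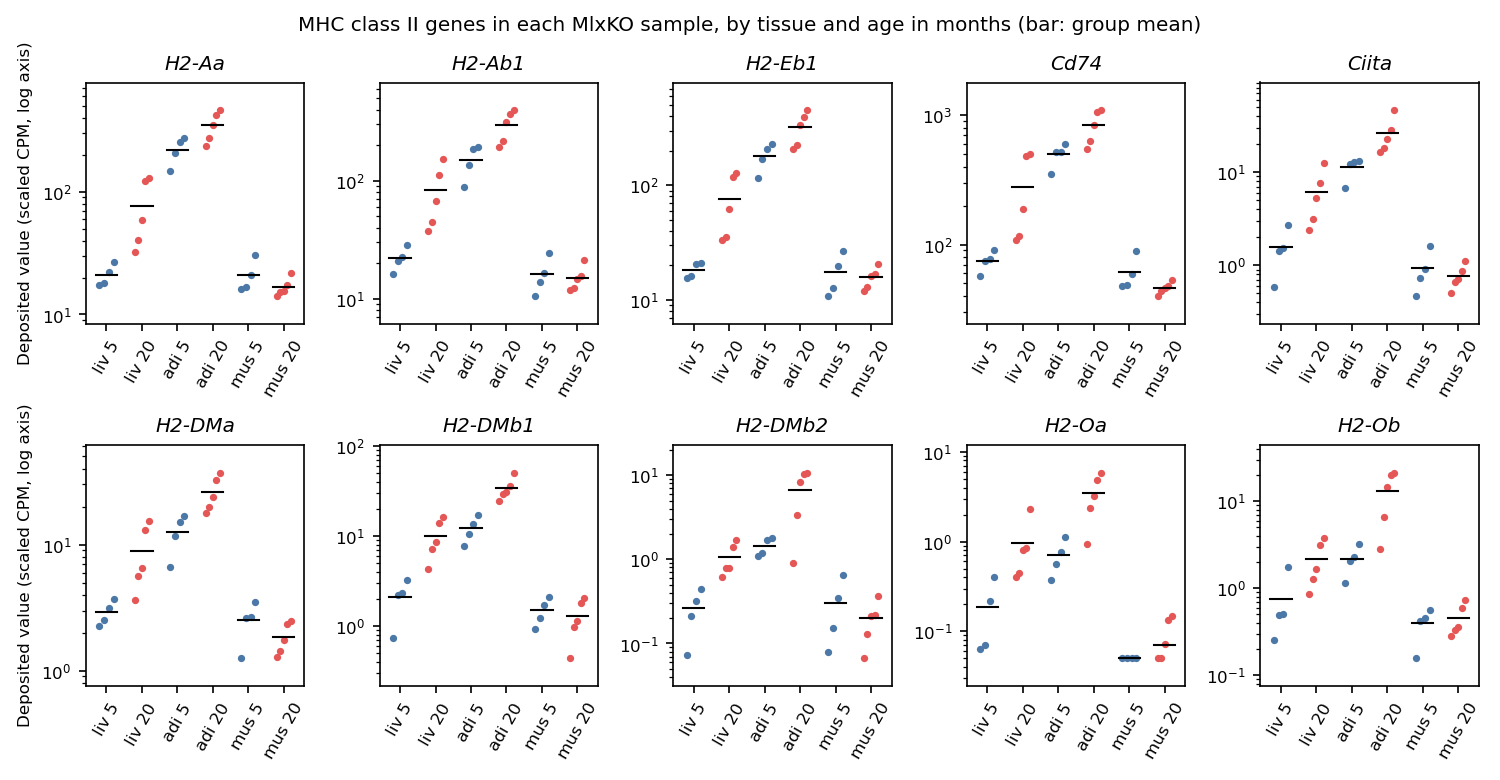
Deposited values (log axis) of the 10 members in each sample, with points for single mice in blue at 5 months and red at 20 months and bars for group means; values under 0.05 are drawn at 0.05. All older points lie above all younger ones for 7 members in liver and 4 in adipose, while the ages overlap for each member in muscle.

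Levels of different genes were compared after division by the length of their annotated exons (GENCODE annotation of GRCm38), as a value per kilobase. In adipose at 20 months *Cd74* stood at 500.02 per kilobase, *H2-Eb1* at 167, *H2-Ab1* at 116 and *H2-Aa* at 91.9. The H2-DM genes followed, with *H2-DMb1* at 20.4, *H2-DMa* at 7.61 and *H2-DMb2* at 3.84 per kilobase. *Ciita* at 2.76, *H2-Oa* at 2.44 and *H2-Ob* at 2.42 were the lowest, and these did not differ beyond their spread between mice (SD 1.25 to 1.5 per kilobase). *H2-Ab1* and *H2-Aa* also lay within 1 SD of each other (35.2 and 25.4 per kilobase). The invariant chain was thus read above each classical chain in every group, at 44.5 per kilobase against 5.56 to 9.42 in liver at 5 months. In muscle *H2-Oa* was at 0 in all 4 samples at 5 months and had 0 to 2 reads per sample at 20 months.

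**Figure D2:**
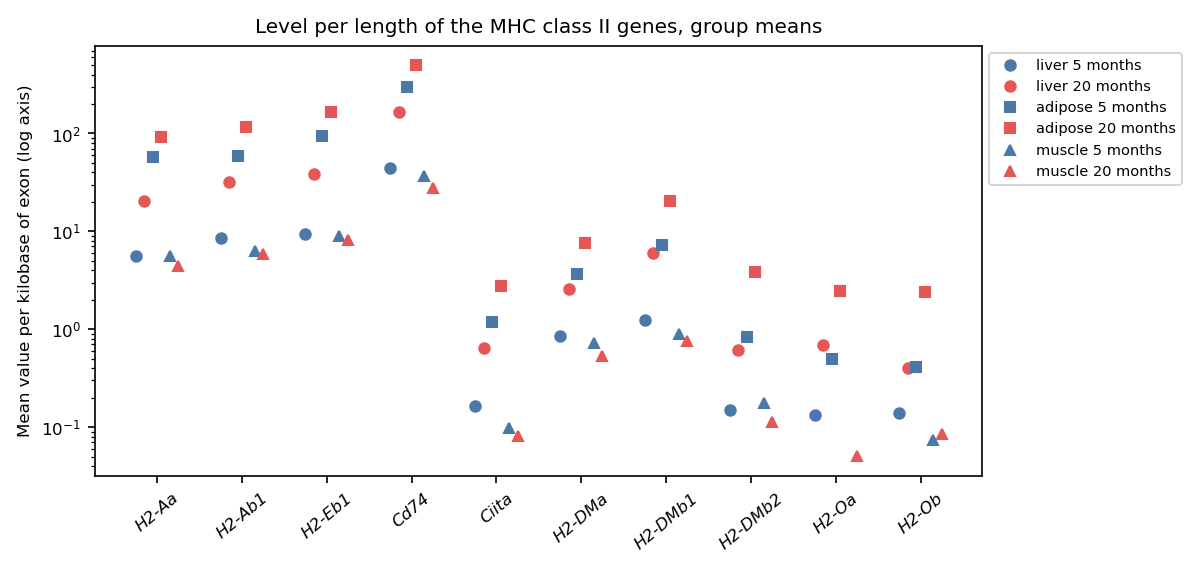
Group mean value per kilobase of annotated exon (log axis) for each member, with symbols for the tissue and colours for the age. *Cd74* is the highest and *H2-DMb2*, *H2-Oa*, *H2-Ob* and *Ciita* take the 4 lowest places in each group; the group mean of *H2-Oa* in muscle at 5 months, which is 0, is left off.

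In liver, the classical chains, the invariant chain, *H2-DMa*, *H2-DMb1* and *Ciita* rose with age. Of the 8 members tested, 7 were higher at 20 months and 0 lower, where 19.8% of all 12654 genes tested changed, 1269 of them upward. The median log2 difference of the 8 was 1.61, beside 0.00 over all genes tested. *H2-Ab1* had values of 22.7, 16, 21 and 28.6 in mice A, B, C and D at 5 months and 37.5, 44.5, 153, 67.2 and 111 in mice 16, 17, 18, 19 and 74 at 20 months. The ages did not overlap, and mice 18 and 74 were the highest of the older livers (log2 difference of 1.69 ± 0.37 (SE), adjusted p = 0.0147). *H2-Eb1* went from 15.5 to 21.1 at 5 months to 33.5, 35.8, 129, 62.0 and 118 in the same order of older mice (1.78 ± 0.38, adjusted p = 0.0136).

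*Cd74* had the highest values of the 10 in liver. They were 74.5, 76.6, 57.4 and 90.7 at 5 months and 109, 116, 488, 190.1 and 502 at 20 months. Again mice 18 and 74 stood above the other 3 and the ages did not overlap (log2 difference of 1.60 ± 0.45, adjusted p = 0.0320). *H2-Aa* was also highest in mice 18 and 74, at 17.5 to 26.5 at 5 months and 32.5 to 131 at 20 months (1.62 ± 0.38, adjusted p = 0.0184).

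Among the chaperones, *H2-DMb1* was at 2.29, 0.727, 2.21 and 3.2 in liver at 5 months and at 4.27, 7.21, 13.9, 8.58 and 16.4 at 20 months. All 5 older livers were above all 4 younger ones (1.78 ± 0.35, adjusted p = 0.0118). *H2-DMa* was at 2.28 to 3.68 and at 3.66 to 15.5, with mouse 16 just inside the range of the younger mice (1.19 ± 0.34, adjusted p = 0.0330). The coactivator gene *Ciita* was at 0.582 to 2.72 at 5 months and at 2.39, 3.11, 7.58, 5.28 and 12.5 at 20 months (1.37 ± 0.39, adjusted p = 0.0333). Mouse 16 was again within the range of the younger livers.

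The H2-DO genes and *H2-DMb2* were read at few counts in liver. *H2-Ob* was at 0.255 to 1.76 at 5 months and 0.865, 1.65, 1.27, 3.12 and 3.81 at 20 months, and did not pass the test (0.82 ± 0.32, adjusted p = 0.0902). *H2-Oa* and *H2-DMb2* had too low values to be tested. *H2-Oa* had 1 to 5 reads per sample at 5 months and 8, 9, 44, 15 and 16 at 20 months, and *H2-DMb2* had 1 to 7 and then 12 to 34, without overlap between the ages for either. Mouse 18 had the highest *H2-Oa* and the second lowest *H2-Ob* of the older livers. Of the 10 members, 7 had no overlap between the ages in liver, 5 of them among the 8 tested, where 19.1% of all genes tested had none.

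The number of calls in liver depended on single mice. It was 4 without mouse 18, 19, A or C, and 3 without mouse B, where it was 7 without mouse 74. The number of all genes called fell in the same 5 fits, from 2508 to between 959 and 1600. It also fell to 1376 without mouse 17 and to 1618 without mouse D, where 7 and 5 members were called. *H2-Ab1*, *H2-Eb1* and *H2-DMb1* passed in each of the 9 fits that left out 1 mouse.

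**Figure D3:**
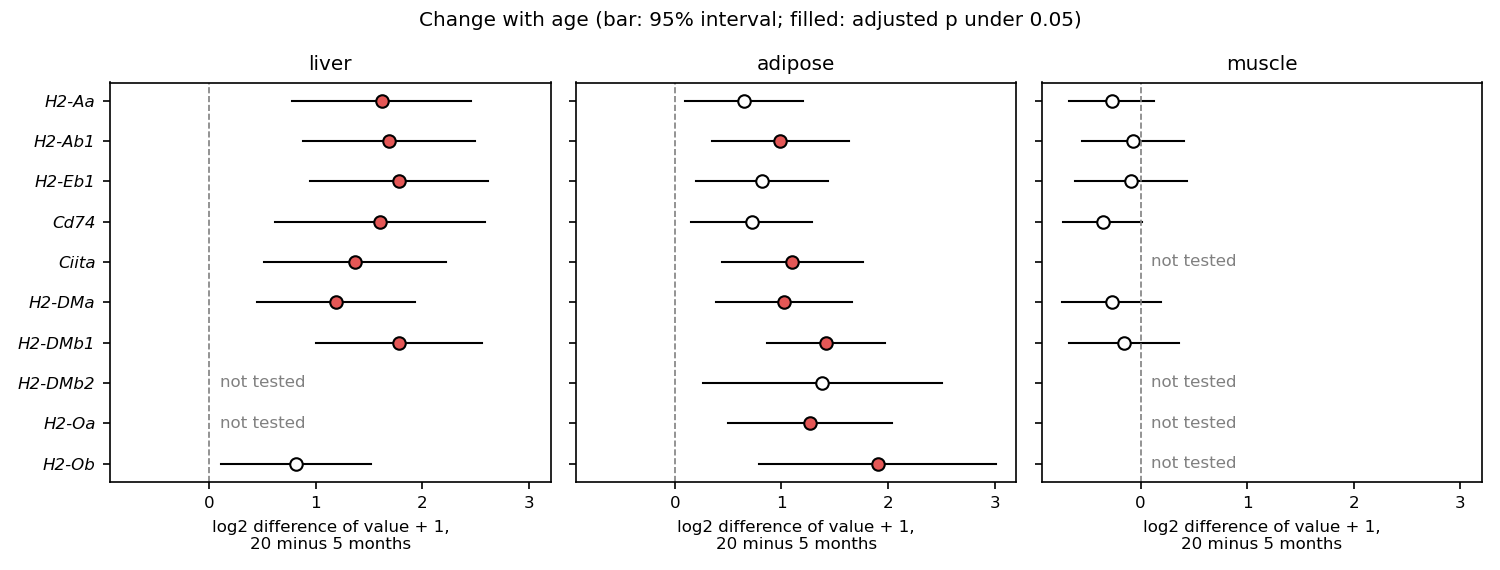
Difference between 20 and 5 months of each member in each tissue (log2 of value + 1), with 95% intervals as bars and filled points where the adjusted p was under 0.05. Filled points number 7 in liver, 6 in adipose and 0 in muscle.

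In adipose, *H2-Oa*, *H2-Ob*, *H2-DMa*, *H2-DMb1*, *Ciita* and *H2-Ab1* rose with age, and *Cd74*, *H2-Aa*, *H2-Eb1* and *H2-DMb2* did not pass the test. Of the 10 members, 6 were higher at 20 months and 0 lower, where 19.1% of all 14005 genes tested changed, 1365 of them upward. The median log2 difference was 1.06, beside 0.01 over all genes tested. *H2-Ob* was at 3.25, 1.15, 2.29 and 2.07 in mice A, B, C and D and at 14.6, 2.80, 19.8, 6.56 and 21.2 in mice 36, 37, 38, 39 and 40. Mouse 37 fell within the range of the younger mice and the other 4 above it (log2 difference of 1.90 ± 0.50 (SE), adjusted p = 0.0336). *H2-Oa* was at 0.369 to 1.12 at 5 months and at 3.24, 0.934, 5.83, 2.34 and 4.81 at 20 months, with mouse 37 again low (1.27 ± 0.34, adjusted p = 0.0360). It reached a value of 1 in mouse A alone of the younger mice and in all older ones but mouse 37. *H2-Oa* could thus be tested only through the older mice, where it is high, and its call is to be read with that limit.

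*H2-DMb1* showed the smallest p of the members in adipose. It was at 10.5, 7.76, 13.7 and 17.2 at 5 months and at 24.3, 30.9, 50.5, 29.2 and 36.4 at 20 months, and mouse 37 was in the middle of the older mice (1.42 ± 0.25, adjusted p = 0.0123). Its neighbour *H2-DMb2* was at 1.09 to 1.80 at 5 months and at 8.19, 0.895, 10.4, 3.37 and 10.7 at 20 months. Here mouse 37 was below every younger mouse and the other 4 above them all (1.38 ± 0.50, adjusted p = 0.0740). *H2-DMa*, whose product pairs with both, was at 6.69 to 16.9 and then at 17.8 to 37.1 (1.02 ± 0.28, adjusted p = 0.0379), and *Ciita* was at 6.76 to 13.1 and then at 16.5 to 46 (1.10 ± 0.30, adjusted p = 0.0358).

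The classical chains were already abundant in adipose at 5 months. *H2-Ab1* was at 135.0, 88.9, 185 and 192 and then at 315, 215, 372, 194 and 395, with mouse 39 just above the highest younger mouse (0.99 ± 0.29, adjusted p = 0.0421). *H2-Aa* was at 148.5 to 276 at 5 months and at 352, 273, 424, 234 and 461 at 20 months, with mice 37 and 39 within the younger range (0.65 ± 0.25, adjusted p = 0.0843). *H2-Eb1* (0.82 ± 0.28, adjusted p = 0.0632) and *Cd74* (0.72 ± 0.25, adjusted p = 0.0695) also overlapped between the ages. The ages did not overlap for 4 of the 10 members, *H2-Ab1*, *H2-DMa*, *H2-DMb1* and *Ciita*, where 17.4% of all genes tested had none.

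The 6 calls in adipose were not stable to the loss of a mouse. They fell to 1, that of *H2-DMb1*, without any of mice 38, 39 and 40 at 20 months or A and B at 5 months, while the number of all genes called fell from 2674 to between 397 and 1036. Without mouse 37 there were 4 calls, among them *H2-DMb2*, while 924 of all genes were called. The same data gave 7 calls by edgeR and 10 by DESeq2 on the recovered reads, where 2692 and 4348 of all genes were called.

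In muscle no change of a member with age passed the test, and 4 of the 10 had too low values to be tested. Of the 6 tested, 0 were called, where 19.3% of all 12720 genes tested changed, and 0 passed at an unadjusted p under 0.05. By edgeR and by DESeq2 0 were called, where 2453 and 3217 of all genes were, and 1 member passed unadjusted in each. *Cd74* was at 48.6, 59.3, 48.1 and 89.4 in mice A, B, C and D at 5 months and at 46.3, 43.9, 40, 53.5 and 48.0 in mice 56 to 60 at 20 months. Mouse D was the highest of the 9 and 4 of the 5 older mice were below all younger ones (log2 difference of -0.36 ± 0.17, adjusted p = 0.144). *H2-Ab1* was at 10.5 to 24.4 and then at 11.9 to 21.1 (-0.07 ± 0.22, with a 95% interval of -0.55 to 0.41). The ages overlapped for all 10 members, where 17.3% of all genes tested had no overlap.

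The age changes themselves were compared between tissues in the fit over all 27 samples. The change in liver exceeded that in muscle for 7 members, *H2-Aa*, *H2-Ab1*, *H2-Eb1*, *Cd74*, *H2-DMa*, *H2-DMb1* and *Ciita*, where 17.5% of all genes tested differed in either direction. *Cd74* showed the largest difference, at 1.96 ± 0.49 (SE) on the log2 scale with an adjusted p of 0.00817. The change in adipose exceeded that in muscle for 5 members, *H2-DMa*, *H2-DMb1*, *H2-DMb2*, *H2-Oa* and *H2-Ob*, where 14.7% of genes differed. *H2-Ob* showed the largest, at 1.84 ± 0.53 (adjusted p = 0.0221). However, *H2-DMb2*, *H2-Oa* and *H2-Ob* were under a value of 1 in every muscle sample and too low to be tested within muscle. *Ciita*, among the 7 for liver, was also too low to be tested there. For these members a change in muscle could hardly be measured, and log2(value + 1) keeps it small. *H2-DMb2*, *H2-Oa* and *H2-Ob* passed the filter of this fit mostly by adipose samples. Both comparisons use the same muscle samples.

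The 5 calls between adipose and muscle were 0 without the adipose sample of mouse B, 2 without adipose mouse 38 or 40, and 2 or 3 without muscle mice 56, 57, 60, B or D. With edgeR the number was 1. Between liver and adipose 0 of 10 age changes differed, where 15.6% of all genes did, and 1 of the 10, *H2-Aa*, had an unadjusted p under 0.05. The difference for *H2-Ob*, liver minus adipose, was -1.08 ± 0.53 (95% interval -2.18 to 0.01, adjusted p = 0.163) and that for *H2-Aa* was 0.97 ± 0.44 (0.06 to 1.88, adjusted p = 0.135). The intervals do not show that liver and adipose changed alike.

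Members were also compared within each sample, as ratios of recovered reads with 0.5 added to each, since a ratio within a sample does not depend on its scaling. Over 3 tissues and 6 ratios to *H2-Ab1*, 18 tests were made by exact two-sided permutation of the ages within a tissue, with 126 splits and a smallest p of 0.00794. In adipose *H2-Aa* was read at 1.36 to 1.67 times *H2-Ab1* at 5 months and 1.12 to 1.27 times at 20 months. The ages did not overlap, and the difference of -0.34 in log2 had the smallest p the permutations can give (exact permutation p = 0.00794, adjusted p = 0.143). *H2-Eb1* to *H2-Ab1* was at 1.13 to 1.31 and then at 1.06 to 1.15 (exact permutation p = 0.0238, adjusted p = 0.190). *H2-Ob* to *H2-Ab1* was at 0.0108 to 0.0242 and then at 0.0131 to 0.0537, a log2 difference of 1.32 with 4 of 5 older mice above all younger ones (exact permutation p = 0.0317, adjusted p = 0.190).

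None of the 18 passed after adjustment, and 3, all in adipose, had an unadjusted exact p under 0.05. A ratio that alone reached the smallest p the permutations can give has an adjusted p of 0.143 over 18 tests. A single ratio therefore could not pass, and the lack of calls says little. The ratio of *Cd74* to *H2-Ab1* was at 2.73 to 3.97 in adipose at 5 months and 2.67 to 2.96 at 20 months (exact permutation p = 0.0556, adjusted p = 0.25). In liver the ratio of *H2-Ob* to *H2-Ab1* spread from 0.00850 in mouse 18 to 0.0469 at 20 months, wide of any difference between the ages (exact permutation p = 0.833).

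**Figure D4:**
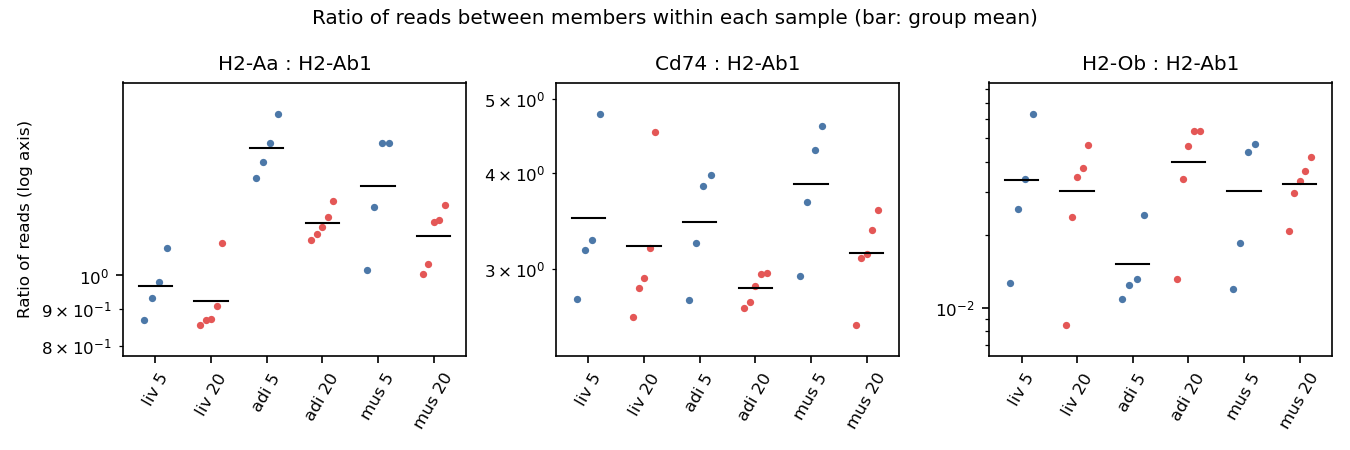
Ratio of reads (log axis) of *H2-Aa*, *Cd74* and *H2-Ob* to *H2-Ab1* within each sample, with bars for group means. In adipose the *H2-Aa* ratio is at least 1.36 at 5 months and at most 1.27 at 20 months, and 1 older adipose sample, mouse 37, has an *H2-Ob* ratio of 0.0131 beside the younger ones.

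Members were also compared by the deviation of each mouse from its group mean. Against the mean log2(value + 1) of *H2-Aa*, *H2-Ab1*, *H2-Eb1* and *Cd74*, and after group means were subtracted, Pearson's r over the 27 samples was 0.86 for *Ciita*, 0.82 for *H2-DMa* and 0.81 for *H2-DMb1*. It was 0.64 for *H2-Oa*, 0.51 for *H2-Ob* and 0.35 for *H2-DMb2*. The classical chains and *Cd74* had r of 0.97 to 0.99, which is partly built in because each is part of that mean. The genes outside the members with the highest r on this measure were *Lsp1* (0.85) and *Coro1a* (0.85), both known from leukocytes, then *Tspan13* (0.84), *Hmha1* (0.83), *Kcnj10* (0.82), *Cyp4f18* (0.82), *Ccr2* (0.82), a chemokine receptor of monocytes, *Rhoh* (0.81), *Idnk* (0.81) and *Plcb2* (0.79). Without the subtraction the highest were *Cyp4f18* (0.97), *Gnai2* (0.97), *Kctd12* (0.97), *Rinl* (0.97) and *Il21r* (0.96), followed by *Kdelc2*, *Coro1a*, *Lbh*, *Hmha1* and *Gimap3* (0.96 each). These values share libraries and tissues and are given as a description.

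Markers of the cell types that carry class II were read in the same samples. In adipose 10 of the 11 B cell markers tested were higher at 20 months, and the summed level of the 12 on the list was 33.3, 8.90, 22.9 and 12.8 in mice A, B, C and D and 164, 28.4, 216, 75.3 and 266 in mice 36, 37, 38, 39 and 40. The order of the 5 older mice was the same as that of *H2-Ob*, with mouse 37 lowest. This was not particular to the B cell list. The T cell list summed to 54.3, 11.9, 96.7, 28.3 and 70.4 in the same older mice, in the order of *H2-Oa*, and the lymphoid stroma list was also lowest in mouse 37. *Cd79a* was at 0.887 to 4.18 at 5 months and at 2.92 to 42.5 at 20 months, and *Ms4a1* at 0.111 to 2.49 and then at 2.14 to 44.2. The part of B cells or of any other of these cell types in the change of the members was not tested.

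In the same adipose samples the macrophage list (10 genes) summed to 629 to 1018 at 5 months and 783, 1835, 2250, 1400 and 1026 at 20 months, with 2 of 10 genes higher and 1 lower. *Adgre1* rose by 1.58 ± 0.45 (adjusted p = 0.0397). The dendritic cell list (10 genes) summed to 81.4 to 123 and then to 117, 200.4, 312, 226 and 167, with 2 higher and 1 lower. *Itgax* rose by 2.26 ± 0.61 (adjusted p = 0.0357), whereas *Zbtb46*, a transcription factor of classical dendritic cells and also of endothelium, fell from 39.9 ± 10.7 (SD, n = 4) to 21.4 ± 7.42 (n = 5) and *Flt3* was at 1.66 to 2.62 and 2.06 to 4.42. Mouse 37, low in the B cell list, was the second highest of the older mice for macrophage markers, and the part of either cell type was not tested.

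In liver 6 of the 8 B cell markers tested were higher at 20 months, with sums of 4.29 to 12.7 at 5 months and 15.2, 29.9, 17.1, 27.5 and 30.9 in mice 16, 17, 18, 19 and 74. *Cd79a* was at 0.436 to 2.88 and then at 1.93 to 5.21. The macrophage list summed to 243 to 366 and then to 252, 577, 640, 483 and 630, with 3 of 10 genes higher, and the list for Kupffer cells, the resident macrophages of liver, to 141 to 235 and then to 170, 611, 438, 401 and 290, with 1 of 5 higher. *Clec4f* was at 65.3 to 119 and then at 68.0 to 176. The dendritic cell list summed to 12.4 to 16.7 and then to 13.6, 17.5, 28.1, 21.1 and 46.7, with 2 of the 4 tested genes higher. Like the classical chains, the dendritic cell, macrophage and T cell lists were each highest in mice 18 and 74. The B cell and Kupffer cell lists were not. The summed level of the 6 hepatocyte markers, of which 0 changed by the test, was 111891 to 161770 at 5 months and 52431 to 105379 at 20 months, lowest in mouse 74. The part of these cell types in the change of the members was not tested.

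In muscle 0 of the 12 B cell markers could be tested, with sums of 1.31 to 8.5 and 2.07 to 5.22, and *Ms4a1* was at 0 in 2 of 4 samples at 5 months. The macrophage list summed to 106 to 178 at 5 months and 57.9 to 96.2 at 20 months without overlap, and 5 of the 9 genes tested were lower, among them *Cd68* (-1.82 ± 0.29, adjusted p = 0.00328) and *Csf1r* (-1.03 ± 0.22, adjusted p = 0.0120). The dendritic cell list was at 19.3 to 41.9 and 20.3 to 26.1, and *Flt3* at 0.157 to 0.692 and then at 0 to 0.145.

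**Figure D5:**
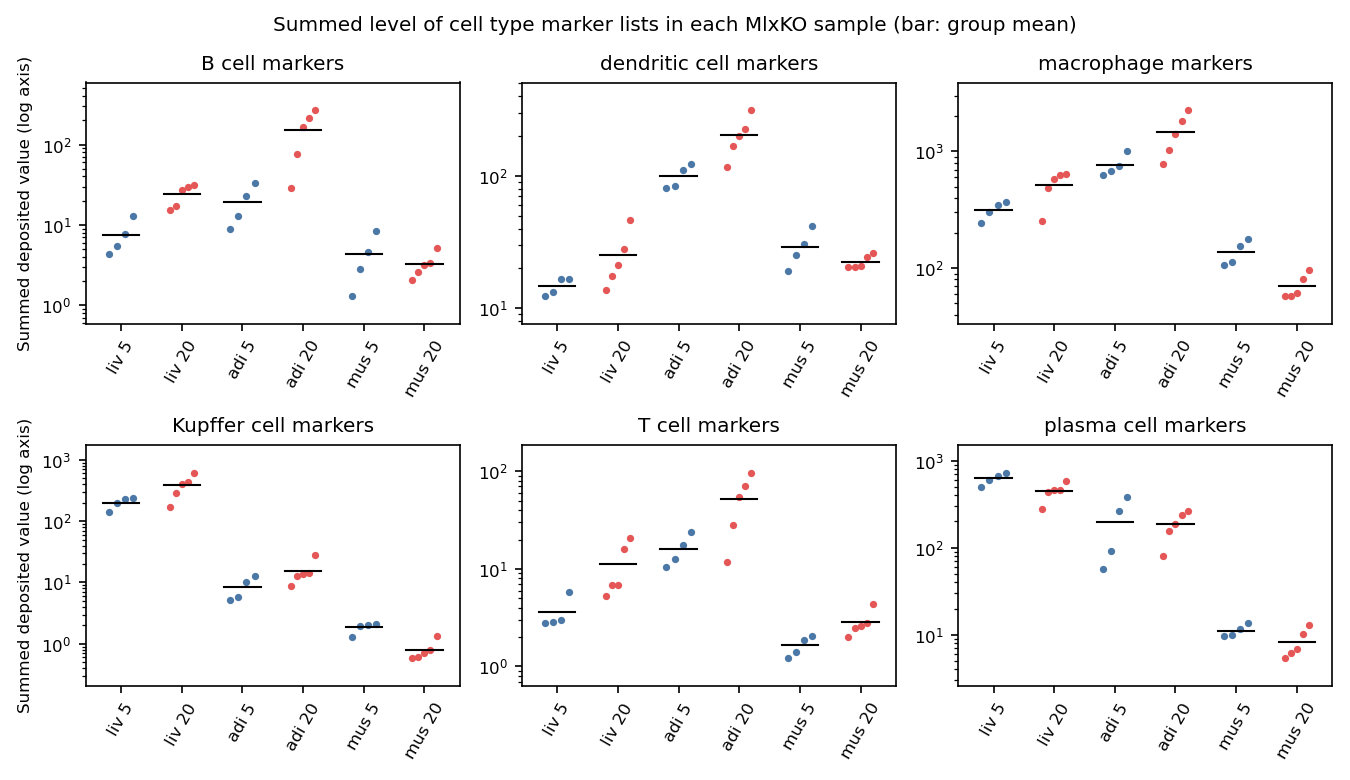
Summed deposited values (log axis) of 6 lists of cell type markers in each sample, blue at 5 months and red at 20 months, with bars for group means. B cell markers reach 75.3 to 266 in 4 of the 5 older adipose samples and 28.4 in mouse 37, and macrophage markers are lower in older than in younger muscle. In liver the plasma cell sum comes mostly from genes other than *Jchain*.

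The regulators that bind class II promoters were taken as a list. Of the 7 genes of the X and Y box complex, 0 changed with age in liver and 0 in adipose, and 3 were higher in muscle. *Rfx5*, which binds the X box, was at 16.5 ± 1.75 and 19.4 ± 10.8 in liver, at 14 ± 5.78 and 12.5 ± 1.55 in adipose, and rose from 4.93 ± 0.372 to 7.47 ± 1.13 in muscle (log2 difference of 0.51 ± 0.13, adjusted p = 0.0222). *Nfyb* (0.34 ± 0.10, adjusted p = 0.0405), a Y box factor, and *Creb1* (0.30 ± 0.09, adjusted p = 0.0461) also rose there. Among the 8 listed regulators of the *Ciita* promoters, 1 of 7 tested was higher in liver, 3 of 8 were higher and 1 lower in adipose, and 1 of 7 was lower in muscle. *Spi1*, encoding the myeloid and B cell factor PU.1, rose by 1.33 ± 0.30 in liver and 1.70 ± 0.40 in adipose, *Pax5*, a B cell factor that is also on the B cell list, by 2.03 ± 0.57 in adipose, and *Irf4* fell in muscle (-1.02 ± 0.29, adjusted p = 0.0328).

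Interferon gamma is the classical inducer of *Ciita*. *Ifng* itself was at 0.0800 or less in liver at 5 months and 0.0530 to 0.200 at 20 months, at 0.0995 or less and then at 0.0590 to 0.625 in adipose, and at 0 in all 9 muscle samples, and it was not tested. Of the other genes of its pathway 3 of 7 were higher and 1 lower in liver, 0 of 7 changed in adipose, and 1 was higher and 3 lower of 6 in muscle. *Irf1*, a transcription factor that acts on *Ciita*, rose by 1.14 ± 0.36 in liver (adjusted p = 0.0456) and showed 0.56 ± 0.17 in adipose (adjusted p = 0.0507) and -0.10 ± 0.16 in muscle (adjusted p = 0.667). The receptor and kinase genes *Ifngr1* (-0.57 ± 0.14), *Jak1* (-0.78 ± 0.13) and *Jak2* (-0.32 ± 0.10) fell in muscle.

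Genes that prepare peptides for class II rose in part. Of the 10 endolysosomal genes tested, 4 were higher and 1 lower in liver, 5 were higher and 0 lower in adipose, and 1 was lower in muscle. *Ctss*, the cathepsin that trims the invariant chain, went from 134 ± 61.3 to 636 ± 526 in adipose (log2 difference of 1.93 ± 0.59, adjusted p = 0.0486) and did not pass in liver (1.05 ± 0.38, adjusted p = 0.0748). In adipose *Ctsd* (1.55 ± 0.45), *Ifi30* (1.52 ± 0.36), the lysosomal thiol reductase, *Ctsb* (1.51 ± 0.40) and *Ctsz* (1.44 ± 0.30) rose too, and *Ifi30* rose by 0.85 ± 0.23 in liver. *Ctsl* fell in muscle (-0.53 ± 0.13, adjusted p = 0.0178). *March1*, a ubiquitin ligase that removes class II from the cell surface, rose by 1.14 ± 0.36 in liver (adjusted p = 0.0480) and 1.14 ± 0.25 in adipose (adjusted p = 0.0212). Of the genes listed for costimulation, *Cd40* (0.87 ± 0.23) rose in liver and *Icosl* fell in muscle (-1.66 ± 0.27, adjusted p = 0.00375). The same list holds *Cd274*, which encodes an inhibitory ligand and not a costimulatory one. *Cd274* rose in liver (1.01 ± 0.31) and was the 1 gene of the 5 tested that changed in adipose (0.72 ± 0.20).

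The MHC class I pathway, which displays peptides from inside the cell, was set beside class II. Of its 14 genes, 7 were higher in liver, 9 in adipose and 0 in muscle, and 0 were lower in any, with median log2 differences of 0.59, 0.75 and 0.10 against 1.61, 1.06 and -0.21 for the class II members tested. *B2m*, the shared light chain, went from 1294 ± 61.9 to 2058 ± 432 in liver (adjusted p = 0.0294) and from 653 ± 109.5 to 1170 ± 229 in adipose (adjusted p = 0.0292), and was at 84.9 and 94.4 in muscle (adjusted p = 0.431). The immunoproteasome genes rose most, with *Psmb8* by 1.73 ± 0.44, *Psmb10* by 1.71 ± 0.36 and *Psmb9* by 1.51 ± 0.35 in liver and by 1.41 ± 0.27, 1.44 ± 0.25 and 1.60 ± 0.29 in adipose. *Nlrc5*, the class I counterpart of *Ciita*, did not pass in any tissue (0.46 ± 0.16, 0.34 ± 0.19 and 0.41 ± 0.24, adjusted p of 0.0609 to 0.225).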

How the data were processed

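RNA-seq samples of *Mlx*KO mice were grouped by the labels into 3 tissues, each with 4 mice of 5 months and 5 of 20 months. The study's methods give 5 mice per group, and 4 were analysed here at 5 months. Poly-A RNA was sequenced from strand-marking libraries. CLC Genomics Workbench was used by the authors to map and count the reads, and a normalized signal per gene and sample was deposited, which is headed as CPM but carries a further factor of each sample. The genome and annotation used for that counting, and whether strand was used, are not given in the sources used here. *H2-DMa* (which overlaps *Brd2*), *H2-Oa*, *Ciita* and *Cd74* overlap other annotated genes, so reads in the overlaps may be assigned to either. The design had assumed CPM, and its tests were kept on the deposited values. Reads were recovered by dividing each value by that of 1 read of its sample, and 100% of values came out within 0.1 of a whole number. By the deposited counts of reads recovered, edgeR called 7 members in liver, 7 in adipose and 0 in muscle, where 2578, 2692 and 2453 of all genes were called.

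Ages were compared within each tissue, and tissues in a fit over all 27 samples, with limma 3.58.1 (R 4.3.3) and a variance trend on log2(value + 1), for genes at 1 or more in at least 4 samples. A 95% interval is that of the moderated t distribution. Other settings tried were a pseudocount of 0.1 or 0.5, a filter on a mean of 5 or none, median-of-ratios and quantile scaling, all samples in 1 fit, no trend, sample weights, edgeR 4.0.16, DESeq2 1.42.0, a replicate block for the mouse, and leaving out each sample. CPM without the further factor was chosen after seeing the data. The fits were checked on simulated reads. At 5 months the same mice gave all tissues, which pairs those samples. Deviations from group means correlated at -0.02 to 0.29 over 12 pairs of samples of a mouse. All 10 members are named throughout. From lists of class II, class I and interferon pathway genes, the 10 genes or fewer with the largest change among those past the threshold in each tissue are named, together with *Nlrc5*, *B2m*, *Ifng*, *Irf1*, *Ctss* and *Rfx5*. Some listed genes are not reported here by name. The members and all lists were chosen with earlier results of these data known. Replicates are separate mice, and reads without molecular identifiers limit the floor of 3 reads to counting error.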

Additional observations from a re-analysis of the deposited data

Results flagged for a closer look

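In 3 of the 59 combinations of member, tissue and age that could be checked, 1 mouse stood apart from the rest of its group by Dixon's test, where chance alone flags about 1 in 20. *H2-Oa* in liver at 20 months was 2.33 (44 reads) in mouse 18, where the next highest was 0.852. *H2-Ob* in liver at 5 months was 1.76 (22 reads) in mouse D of that age, where the next highest was 0.509. *Ciita* in adipose at 5 months was 6.76 (183 reads) in mouse B, where the next lowest was 12.3.

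The age change differed between tissues in 12 tests (limma, adjusted p under the threshold). The log2 difference, liver minus muscle, was 1.89 for *H2-Aa*, 1.76 for *H2-Ab1*, 1.87 for *H2-Eb1*, 1.96 for *Cd74*, 1.46 for *H2-DMa*, 1.93 for *H2-DMb1* and 1.47 for *Ciita*. For adipose minus muscle it was 1.30 for *H2-DMa*, 1.57 for *H2-DMb1*, 1.49 for *H2-DMb2*, 1.17 for *H2-Oa* and 1.84 for *H2-Ob*. Of these genes, *Ciita*, *H2-DMb2*, *H2-Oa* and *H2-Ob* were too low to be tested within muscle, so their change there could hardly be measured.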

How the results depend on the processing

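The members called between ages numbered 3 to 8 in liver and 1 to 7 in adipose with 1 sample left out, and 0 in muscle. In adipose there was 1 call with no filter on low values, where 1525 of the 25156 genes tested were called. Sample weights and DESeq2 each gave 10 calls, where 8456 and 4348 of all 14005 genes were called, against 2674 in the main fit. The larger counts of members thus came with more calls over all genes. The number whose age change differed with 1 sample left out was 0 to 2 between liver and adipose, and 0 to 6 between adipose and muscle, where a filter on a mean of 5 left 2 and 1 with edgeR. At 5 months edgeR called 1 member between liver and muscle. With a replicate block for the mouse, the calls were 0, 7 and 5 for the age changes (liver against adipose, liver against muscle and adipose against muscle), and no call of a member changed in any tissue comparison. CPM without the further factor moved the median of all genes by 0.21 in liver and 0.11 in muscle, with 7, 6 and 0 calls.

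Signs turned in 32 alternatives of single members or ratios, none past the threshold. In muscle between ages, CPM gave 0.027 for *H2-Ab1* and 0.0071 for *H2-Eb1*, and with 1 sample left out *H2-Ab1* ranged from -0.24 to 0.14, *H2-Eb1* from -0.28 to 0.13 and *H2-DMb1* from -0.27 to 0.0012. With edgeR the age change of *H2-Oa* differed by 0.10, -1.31 and -1.41 in the same 3 comparisons, and at 5 months *H2-Aa* differed by -0.0058 between liver and muscle, by -0.15 with CPM, and *H2-Eb1* by -0.059. Left-out samples gave -0.057 to 0.42 for *H2-DMa* and -0.0080 to 0.49 for *Ciita* between the age changes of liver and adipose, and at 5 months between liver and muscle -0.081 to 0.22 for *H2-Aa*, -0.062 to 0.35 for *H2-Eb1*, -0.011 to 0.32 for *H2-DMa* and -0.12 to 0.079 for *H2-DMb2*. The log2 ratios to *H2-Ab1* ranged in liver from -0.25 to 0.044 for *Cd74*, -0.53 to 0.27 for *H2-Ob* and -0.090 to 0.35 for *Ciita*, and in muscle from -0.086 to 0.042 for *H2-Eb1*, -0.093 to 0.57 for *H2-Ob* and -0.40 to 0.12 for *Ciita*. The cause of these changes was not tested. Depth limits *H2-Oa*, *H2-Ob* and *H2-DMb2*, with 76 reads or fewer per liver or muscle sample.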

Other observations

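Other class II loci and markers of T and plasma cells were also read. *H2-Eb2*, a further beta chain gene, was at 0.480 to 0.798 in adipose at 5 months and at 4.39, 0.779, 4.91, 1.87 and 6.42 in mice 36, 37, 38, 39 and 40 at 20 months (log2 difference of 1.37 ± 0.39 (SE), adjusted p = 0.0387 by limma), with mouse 37 as low as it was for *H2-Ob*. Every younger adipose sample was under a value of 1, so *H2-Eb2* could be tested only through the older mice, where it is high. The I-E alpha pseudogene *H2-Ea-ps* was listed at 0 in all 27 samples. Of the T cell markers, 2 of 2 tested were higher at 20 months in liver and 2 of 9 in adipose, and 1 could be tested in muscle, where 0 changed. *Cd4*, whose product binds class II, did not pass in adipose (0.28 ± 0.50, adjusted p = 0.690) and was too low to be tested in liver and muscle. *Cd8a*, a marker of T cells that recognise class I, rose by 1.17 ± 0.31 in liver (adjusted p = 0.0269) and 1.82 ± 0.46 in adipose (adjusted p = 0.0303). *Lag3*, an inhibitory receptor for class II, rose by 0.97 ± 0.26 in adipose (adjusted p = 0.0350).

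Plasma cells, which lower class II as they mature from B cells, were read through *Jchain*, which rose by 1.92 ± 0.51 in liver (adjusted p = 0.0261), from 0.509 to 2.16 at 5 months to 2.55 to 24.9 at 20 months. It was the 1 gene higher of the 3 tested on the plasma cell list there, whose median log2 difference was -0.46, and 2 of 5 were higher in adipose. The summed level of the list in liver was 504 to 724 and then 279 to 585, mostly from genes other than *Jchain*. Whether those genes marked plasma cells in liver was not tested. The mesothelial markers, 3 of 6 of which were lower in adipose at 20 months, moved against the members there, with summed levels of 87.2 to 151 and then 34.9 to 84.5. *Ltb*, a lymphotoxin gene of lymphoid tissue, rose by 1.52 ± 0.47 in liver and 1.86 ± 0.55 in adipose. It was the 1 gene higher of the 4 tested on the lymphoid stroma list in adipose, whose median log2 difference was -0.61 and whose summed level was 57.5 to 119.8 and then 10.98 to 105.0, and of the 2 tested in liver, whereas *Cxcl13*, a B cell chemokine, fell in muscle (-1.75 ± 0.35, adjusted p = 0.00822).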
